A study of Homo sapiens with 6 samples.

Results

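The lung carcinoma line A549 and the bronchial epithelial line BEAS-2B were compared after 48 h of 5 ng/mL TGF-β1 in both. The comparison used 2 of the 6 libraries of the series, 1 for each line, and all 25737 gene entries of the count tables. The other 4 libraries, the same lines untreated and at 1 ng/mL, were used to ask which differences between the lines remained, shrank or appeared in the treated state. Each condition had 1 library, so no spread between cultures could be measured, no test between conditions was possible and no p-value is given.

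Both lines are labelled wild type and were grown in RPMI1640 with 10% serum. A549 is an established tumour line, and BEAS-2B cells are bronchial epithelial cells immortalised with a hybrid of adenovirus and SV40. TGF-β1 was given in RPMI1640 with 1% serum, and whether the untreated cells were moved to 1% serum is not stated in the labels. The treated pair therefore shares its medium and dose, while a change from the untreated to the treated state may include a change of serum. RNA was read from the 3′ ends of transcripts, so a value says nothing of isoforms. In bulk libraries such as these, fewer cells making a transcript and less of it in each cell cannot be told apart.

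TGF-β1 signals through a pair of receptor kinases to SMAD transcription factors. In epithelial cells it is known to lower junction genes, to raise mesenchymal and contractile genes, and to raise the extracellular matrix of fibronectin and collagens that accumulates in lung fibrosis. Another system relevant here is NRF2, a transcription factor that binds antioxidant response elements and raises genes for glutathione, NADPH and the reduction of aldehydes and quinones. KEAP1 normally keeps NRF2 low, and A549 cells are known to carry an inactive KEAP1.

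The treated A549 library held 6101351 counts and the treated BEAS-2B library 4120624, within a range of 4120624 to 7841350 over all 6. Values below are normalized counts, that is counts scaled by library and composition to 1 common size. A gene met the minimum level when log2 of its normalized count plus 1 reached 7, or 127 normalized counts, which was 140 reads in the treated A549 library and 101 in the treated BEAS-2B library. Ranges in brackets after a fold difference are exact 95% intervals for the ratio of 2 counts and cover counting error only. Where a library held 0 counts, a fold difference given as at least a value is set against 3 counts. Such a value is not a 95% limit, which lies lower. For ALDH1A1 at 5 ng/mL it is 1871-fold, and the exact interval starts at 1521-fold. FN1 alone took 4.02% of the treated BEAS-2B library.

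The epithelial labels were checked against marker genes. CDH1, which encodes the junction protein E-cadherin, was read 640 times in untreated A549 cells, 30 times at 1 ng/mL and 8 times at 5 ng/mL, and had 2, 0 and 2 counts in BEAS-2B cells. EPCAM had 49, 7 and 2 counts in A549 cells and 0 in every BEAS-2B library. The basal cell keratin KRT14 was at 0 in all 6 libraries, the basal keratin KRT5 had at most 1 count, and the alveolar gene SFTPC was at 0. CDH1 and EPCAM were thus near 0 in BEAS-2B cells in every state and near 0 in A549 cells after treatment. Other genes of the epithelial list were not near 0. Of its 14 members at the level in an untreated or 5 ng/mL library, 7 fell and 1 rose at least 2-fold in A549 cells. In BEAS-2B cells 6 fell and 1 rose. The sums of the list hide this, since KRT7, which rose, made up a large part of the treated A549 sums. Its 35 genes summed to 37889, 30387 and 32912 normalized counts in A549 cells (untreated, 1 and 5 ng/mL). In BEAS-2B cells the sums were 6511, 6991 and 7139. The simple keratins KRT8 and KRT18 were detected in both lines. Of the basal list, KRT17 and PDPN were at 3786 and 390 normalized counts in treated BEAS-2B cells. No leukocyte marker exceeded 73 counts in any library.

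After 5 ng/mL, 1843 of 6837 genes at the minimum level differed at least 2-fold between the lines (27.0%). Of these, A549 cells had the higher level for 1013 genes (14.8%) and BEAS-2B cells for 830 (12.1%). Untreated cells differed at 2710 of 7329 genes (37.0%), with 1324 higher in A549 cells (18.1%) and 1386 higher in BEAS-2B cells (18.9%). The pair at 1 ng/mL, which shares no library with either, differed at 1968 of 6965 genes (28.3%), 1067 of them higher in A549 cells (15.3%) and 901 lower (12.9%). On a fixed set of 8159 genes that met the level in at least 1 of the 6 libraries, the share differing at least 2-fold was 37.1% untreated, 29.2% at 1 ng/mL and 28.1% at 5 ng/mL. The median distance between the lines on that set, as an absolute log2 ratio, was 0.731, 0.606 and 0.574. The 2 treated lines lay closer to each other than the 2 untreated lines did, and the distance between treated and untreated A549 cells (0.660) exceeded the distance between the treated lines. Treated and untreated BEAS-2B cells were 0.494 apart. With all libraries thinned to the same total, the 3 shares were 37.1%, 29.4% and 28.6%.

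The difference of each gene in the treated pair followed its difference in the untreated pair. Across the 8159 genes, Pearson's r between the 2 sets of log2 ratios was 0.812 and Spearman's rho was 0.707, and 75.5% of genes had the same sign. Between 1 and 5 ng/mL the values were 0.929, 0.855 and 83.3%. These are descriptions across genes, which are not independent replicates, and the ratios compared come from separate libraries.

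Among 8018 genes that met the level in at least 1 of the untreated and 5 ng/mL libraries, 1549 (19.3%) differed at least 2-fold in the same direction in both states. Of these kept differences, 843 (10.5%) were higher in A549 cells, 706 (8.81%) were higher in BEAS-2B cells, and 318 of the 1549 were below the minimum level in both treated libraries. A further 1390 genes (17.3%) differed at least 2-fold only before treatment, 590 toward A549 cells (7.36%) and 800 toward BEAS-2B cells (9.98%). Of these 1390, 312 were below the minimum level in both treated libraries, 227 of them among the 590 toward A549 cells. Differences that appeared were fewer, 659 genes (8.22%), with 403 toward A549 cells (5.03%) and 256 toward BEAS-2B cells (3.19%). The split between the lines depended on scaling: by total counts, kept differences numbered 793 toward A549 cells and 810 toward BEAS-2B cells, those that appeared 322 and 330, and all differences at 5 ng/mL 849 and 955. Another 41 genes (0.511%) differed at least 2-fold in both states but in opposite directions, 18 turning toward A549 cells (0.224%) and 23 toward BEAS-2B cells (0.287%). Many of these passages were small steps across the 2-fold line. Of the differences that were lost, the ratio itself moved at least 2-fold for 331 of 590 and 368 of 800 genes, and of those that appeared, for 205 of 403 and 105 of 256.

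**Figure D1:**
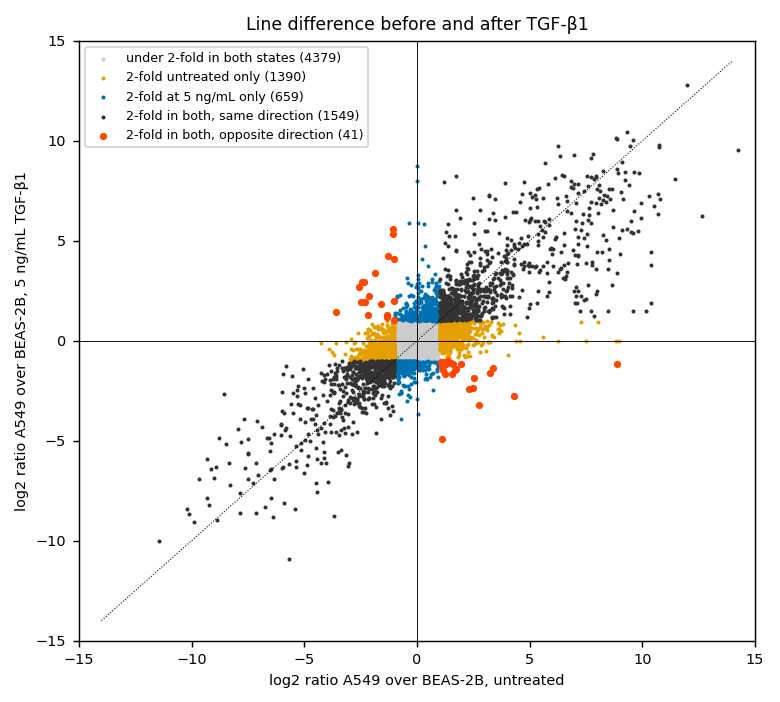
Line difference of each gene as the log2 ratio of A549 over BEAS-2B in untreated cells (horizontal axis) and after 5 ng/mL TGF-β1 (vertical axis), 1 library per line and state, coloured by whether a 2-fold difference was kept, lost, appeared or reversed. Kept differences (1549 genes) run along the diagonal, lost ones (1390) lie near the horizontal zero line, and the 41 reversed genes occupy the 2 opposite quadrants.

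The line that moved differed between these classes. Of the 368 differences that had been higher in BEAS-2B cells and closed by at least 2-fold, 214 closed with a rise of at least 2-fold in A549 cells alone and 44 with a fall in BEAS-2B cells alone. Of the 331 that had been higher in A549 cells, 147 closed with a fall in A549 cells alone and 33 with a rise in BEAS-2B cells alone. Among the 205 that opened toward A549 cells, A549 rose alone for 87 and BEAS-2B fell alone for 54. A549 cells moved more often than BEAS-2B cells in each of these groups. Over the 8018 genes, 1297 rose and 1335 fell at least 2-fold in A549 cells, against 630 and 1066 in BEAS-2B cells.

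The pair at 1 ng/mL was read beside these classes, in libraries that took no part in defining them. Of the kept differences, 733 of 843 (87.0%) and 579 of 706 (82.0%) also reached 2-fold on the same side at 1 ng/mL. For differences that appeared, the shares were 220 of 403 (54.6%) toward A549 cells and 115 of 256 (44.9%) toward BEAS-2B cells. Of the lost differences, 149 of 590 (25.3%) and 169 of 800 (21.1%) were still at least 2-fold at 1 ng/mL.

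Differences were then read through 24 lists of genes with known roles. More than 1 in 2 members at the level were at least 2-fold higher in treated A549 cells among NRF2 target genes (19 of 24), epithelial genes (8 of 10) and endoderm and liver-type transcription factors (4 of 4). The same held for treated BEAS-2B cells among matrix glycoproteins (12 of 19) and MHC class I genes (6 of 11), with 10 of 20 matrix remodelling enzymes, 7 of 18 mesenchymal genes and 5 of 11 collagens. The median log2 ratio was 1.94 for NRF2 targets, 2.39 for epithelial genes, −1.68 for matrix glycoproteins and −1.63 for MHC class I genes, beside −0.01 over all 6837 genes. The counts of members below stand beside 14.8% of all genes higher in treated A549 cells and 12.1% higher in treated BEAS-2B cells. They are descriptions of the lists, not tests. A member at 0 in 1 treated line could meet the level only through the other line, which fixed its direction. In treated BEAS-2B cells 10 of 35 epithelial genes and 10 of 36 NRF2 targets were at 0. In treated A549 cells 3 of 33 matrix glycoproteins and 1 of 18 MHC class I genes were at 0. The remaining lists were divided or small. Of those at the level, 4 CDK inhibitor and p53 pathway genes of 24 were higher in A549 cells and 5 lower, with, in the same order, 3 and 3 of 11 for TGF-β ligands and receptors, 4 and 2 of 16 for SMAD feedback genes, 3 and 2 of 10 for integrins, 1 and 3 of 9 for cytokines and 1 and 2 of 7 for interferon-stimulated genes. The EGF family had 2 and 1 of 4, basal cell genes 1 and 3 of 5, and metallothioneins 0 and 1 of 3. Among the 10 endothelial markers only ESAM met the level, and it was higher in A549 cells. Their summed level was 136 normalized counts in treated A549 cells, nearly all of it ESAM, and 13.9 in treated BEAS-2B cells. In treated A549 cells 8 of the 10 were at 0.

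**Figure D2:**
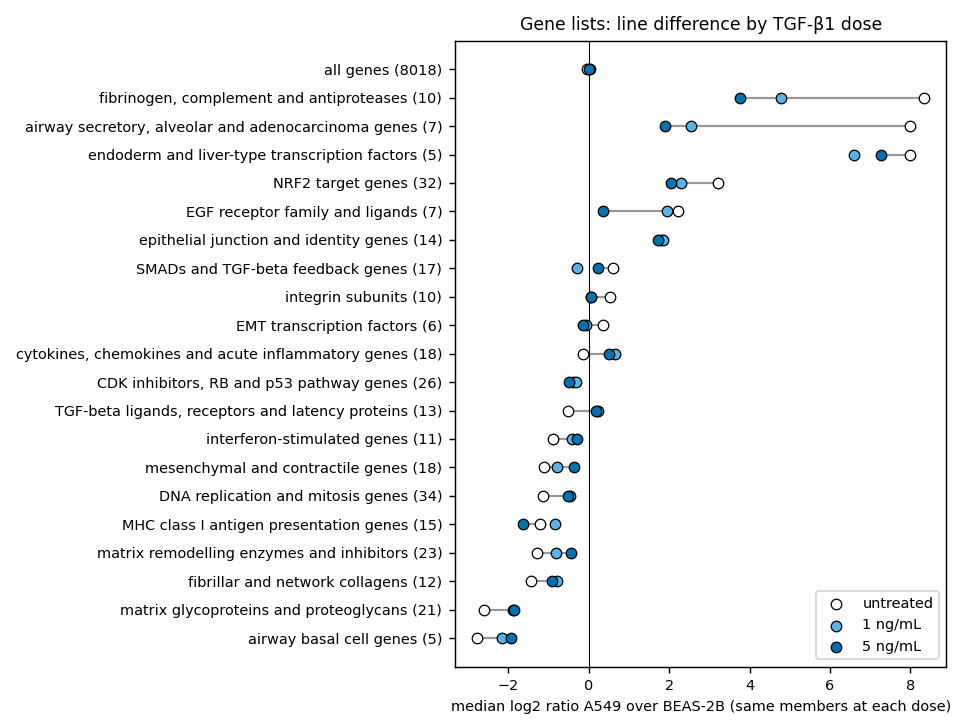
Median log2 ratio of A549 over BEAS-2B for each gene list in untreated cells and at 1 and 5 ng/mL TGF-β1, over the same members at every dose, with the number of members in brackets. The point of NRF2 targets moves from 3.22 untreated to 2.04 at 5 ng/mL and that of DNA replication and mitosis genes from −1.14 to −0.51, both toward 0. Members entered the plot through any of the untreated and 5 ng/mL libraries, so a list high in 1 untreated line can move toward 0 because of that choice.

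The differences best resolved toward A549 cells were all present before treatment. ALDH1A1, a retinaldehyde dehydrogenase, stood at 17467, 12558 and 7069 normalized counts in A549 cells (untreated, 1 and 5 ng/mL, the order used throughout) and at 3.35, 3.38 and 0 in BEAS-2B cells. At 5 ng/mL it was at least 1871-fold higher in A549 cells, although its level there was the lowest of the 3. RSPO3, a secreted enhancer of WNT signalling, stood at 1365, 2336 and 1378 in A549 cells and had 1 count in the 3 BEAS-2B libraries together, at least 365-fold higher at 5 ng/mL. NPTX1, a secreted pentraxin, rose with treatment in A549 cells, from 123 to 2398 and 2187, and was 868-fold higher there than in treated BEAS-2B cells (240 to 7171).

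Cell surface genes followed. CADM1, an adhesion molecule, stood at 459, 1252 and 1111 in A549 cells and at 0 in all BEAS-2B libraries, and was at least 294-fold higher at 5 ng/mL. CLDN2, a pore-forming claudin, stood at 1718, 1093 and 833 against 0 in all BEAS-2B libraries and was at least 220-fold higher. The neurotrophin receptor gene NTRK3 was 409-fold higher (175 to 1260) and the tumour antigen gene PRAME at least 284-fold higher. In all, 76 of 5981 genes at the level in treated A549 cells (1.27%) had at most 3 counts in each of the 3 BEAS-2B libraries, against 14 of 5922 (0.236%) in the other direction. A limit of 3 counts is stricter in the deeper A549 libraries, and with all libraries thinned to the same total the numbers were 77 and 22.

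Most NRF2 targets at the level were higher in A549 cells in both states. At 5 ng/mL, 19 of 24 members at the level were at least 2-fold higher in A549 cells and 0 were higher in BEAS-2B cells, beside 30 and 1 of 32 in untreated cells. The other 8 of the 32 were below the level in both treated libraries. Members at 0 in treated BEAS-2B cells, 10 of the 36 listed, could meet the level there only through A549 cells. Of the 24 at the level in both states, a count chosen after seeing the data, 23 (95.8%) were closer to equal at 5 ng/mL than untreated, beside 59.2% of the 6148 genes at the level in both states. In A549 cells 16 of the 24 went down at least 2-fold and 1 went up, whereas 5 went down and 1 went up in BEAS-2B cells. Since 30 of 32 members started higher in A549 cells and the level was required before treatment, these counts describe the list and are not evidence of narrowing.

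The antioxidant response element is a short sequence in promoters of such genes. A search for the core TGACNNNGC on both strands, in 250 bases before to 50 after the gene start, found it in 8 of 26 NRF2-list promoters with a RefSeq entry (30.8%) and in 3702 of 27305 promoters overall (13.6%). A match is a description of the sequence and not evidence of binding, and NRF2 binding was not measured. The stretches below, from RefSeq on GRCh38.p14, are given for list members whose levels follow, each 5′ to 3′ on the strand that carries the core, which is in capitals. GCLM lies on chromosome 1 (chr1:93909446-93909474), GPX2 on chromosome 14 (chr14:64942849-64942877), ME1 on chromosome 6 (chr6:83431170-83431198), PIR on chromosome X (chrX:15493289-15493317) and TXNRD1 on chromosome 12 (chr12:104215670-104215698).
GCLM: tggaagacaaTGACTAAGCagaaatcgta
GPX2: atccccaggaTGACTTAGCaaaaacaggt
ME1: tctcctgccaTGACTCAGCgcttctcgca
PIR: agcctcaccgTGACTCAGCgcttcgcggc
TXNRD1: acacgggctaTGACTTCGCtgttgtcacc

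These 5 genes shared the core but not the size of their change. GPX2, a glutathione peroxidase, stood at 1127, 15.1 and 1.81 normalized counts in A549 cells and at 0 in all BEAS-2B libraries, so that a difference of at least 337-fold before treatment could not be told from none at 5 ng/mL. TXNRD1, which reduces thioredoxin, stood at 2185, 319 and 367 in A549 cells and 438, 111 and 196 in BEAS-2B cells. Its difference narrowed from 4.98-fold (4.47 to 5.57) to 1.87-fold (1.55 to 2.26). PIR, an iron-binding nuclear protein, narrowed from 46.9-fold (23.5 to 109) to 11.9-fold (5.61 to 30.3). ME1, an NADPH-producing enzyme, stood at 351, 214 and 201 in A549 cells and at 41.3, 42.8 and 41.6 in BEAS-2B cells. GCLM, the modifier subunit of glutathione synthesis, differed 4.50-fold (3.74 to 5.44) untreated and 3.69-fold (2.93 to 4.71) treated, and these intervals overlapped.

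The aldo-keto reductases fell steeply in A549 cells. AKR1B10 stood at 6351, 273 and 74.4 in A549 cells and at 0 in every BEAS-2B library, a difference of at least 1898-fold before treatment and at least 19.7-fold after it. AKR1C2 stood at 19050, 2301 and 733 in A549 cells and at 0, 2.25 and 0 in BEAS-2B cells. AKR1C1, AKR1C2 and AKR1C3 are near-identical, and how reads were divided among them is uncertain. The aldehyde dehydrogenase gene ALDH3A1 went from 4660 to 162 and 105 in A549 cells.

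Other targets varied in how much of their distance they kept. NQO1, a quinone reductase, stood at 7790, 2449 and 1687 in A549 cells and 399, 126 and 117 in BEAS-2B cells, falling in both lines, and differed 19.5-fold (17.5 to 21.8) untreated and 14.4-fold (11.7 to 17.9) treated. SLC7A11, the cystine transporter, narrowed from 40.4-fold (25.4 to 68.6) to 13.9-fold (8.40 to 24.6). HMOX1, a haem oxygenase, went the other way in level. It rose from 697 to 857 and 1723 in A549 cells and from 69.2 to 475 and 472 in BEAS-2B cells, and its difference still narrowed, from 10.1-fold (7.76 to 13.3) to 3.65-fold (3.26 to 4.09). FTH1, the ferritin heavy chain, was 2.32-fold higher in untreated A549 cells (2.25 to 2.39) and 1.03-fold (0.978 to 1.08) after treatment.

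**Figure D3:**
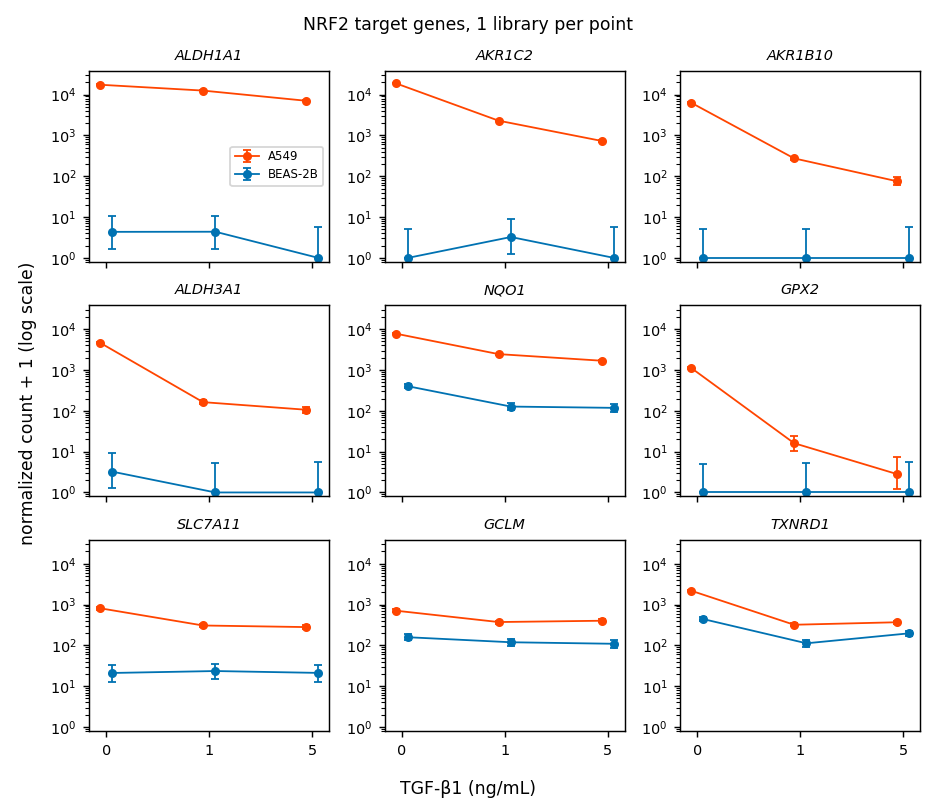
Normalized count plus 1 (log scale) of 9 NRF2 target genes by TGF-β1 dose (0, 1 and 5 ng/mL) in the 2 lines, A549 and BEAS-2B, 1 library per point, with bars for exact 95% counting intervals. The A549 line of AKR1B10 falls from 6351 to 74.4 and that of GPX2 from 1127 to 1.81, while ALDH1A1 remains at 7069.

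Genes of airway secretory cells and adenocarcinomas, and fibrinogen and complement genes, were near 0 after treatment in A549 cells for several members. The airway mucin gene MUC5AC stood at 462, 4.12 and 0 in A549 cells and at 0, 5.63 and 1.26 in BEAS-2B cells, and MUC5B at 253, 0 and 4.54 against 0 in all BEAS-2B libraries. CEACAM6, an adhesion molecule of adenocarcinomas, went from 767 to 8.93 and 1.81, and LCN2, an iron-carrier binding protein, from 305 to 4.81 and 0. Of this list 6 genes met the level untreated and 1 other met it at 5 ng/mL. The fibrinogen chains were lower as well. FGB stood at 1329, 111 and 47.2 in A549 cells, FGA at 513, 35.0 and 19.1 and FGG at 351, 6.18 and 10.9, with at most 1 count for any of the 3 genes in a BEAS-2B library. Of the 10 genes of the fibrinogen, complement and antiprotease list at the level untreated, 9 were below it in both treated libraries. In both lists nearly all members entered through an untreated library in which they were high, so these counts describe the members and are no measure of a general fall.

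Transcription factors of endoderm and liver type did not close in this way. HNF4A stood at 311, 135 and 153 in A549 cells and at 0 in every BEAS-2B library. FOXA2 stood at 790, 420 and 350 in A549 cells, with BEAS-2B cells at 0, 3.38 and 0. At 5 ng/mL they were at least 40.6-fold and 92.7-fold higher in A549 cells. All 4 members of this list at the level were higher in treated A549 cells. A member at 0 in treated BEAS-2B cells, as 9 of the 13 listed were, could meet the level only through A549 cells. For such members the direction was fixed by the level, so the count is a description only.

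Among epithelial genes, 8 of 10 at the level were at least 2-fold higher in treated A549 cells and 0 in BEAS-2B cells, as 8 of 14 and 1 had been before treatment. The direction was fixed by the level for any member at 0 in treated BEAS-2B cells, as 10 of the 35 listed were, so the count is a description only. The E-cadherin difference was no longer resolved after treatment. It went from 742 against 2.23 normalized counts untreated, a 332-fold difference (91.6 to 2751), to 7.26 against 2.52, for which the interval spans 0.575 to 27.9. The keratins remained apart. KRT8 fell in both lines, at 7081, 1913 and 1626 in A549 cells and 415, 230 and 220 in BEAS-2B cells, and differed 7.38-fold at 5 ng/mL (6.31 to 8.66). KRT7 rose in both, at 4024, 14155 and 17495 in A549 cells and 1186, 3337 and 2916 in BEAS-2B cells. Its difference widened, from 3.39-fold (3.17 to 3.64) to a log2 ratio of 2.58 at 5 ng/mL. TJP1, a tight junction scaffold, appeared in the treated pair at 2.04-fold (1.82 to 2.29), from 1.30-fold (1.15 to 1.48).

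Mesenchymal genes were divided between the lines. Of 18 at the level, 3 were higher in treated A549 cells and 7 in BEAS-2B cells. The myosin light chain gene MYL9 stood at 6.95, 37.1 and 5.44 in A549 cells and 845, 1355 and 2037 in BEAS-2B cells, and the surface glycoprotein gene THY1 at 4.63, 17.2 and 8.16 against 1294, 1394 and 1776. They were 374-fold (172 to 1021) and 218-fold (114 to 477) higher in treated BEAS-2B cells. ACTA2, the smooth muscle actin, was instead 4.08-fold higher in treated A549 cells (3.11 to 5.43), at 318 against 78.1. S100A4 of the same list differed far more toward A549 cells, with log2 ratios of 7.59 untreated, 10.6 at 1 ng/mL and 7.72 at 5 ng/mL. VIM, the intermediate filament vimentin, and CDH2, N-cadherin, differed less, by 1.25-fold toward A549 cells (1.19 to 1.31) and 1.18-fold toward BEAS-2B cells (1.12 to 1.25). TAGLN, an actin-binding protein, narrowed from 8.34-fold (5.46 to 13.3) to 2.20-fold (2.02 to 2.40) as it rose in both lines. The EMT transcription factors at the level differed little, with 1 of 6 called, ZEB2, higher in BEAS-2B cells.

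Among matrix genes at the level, more were at least 2-fold higher in BEAS-2B cells than in A549 cells in both states. At 5 ng/mL, 12 of 19 matrix glycoproteins at the level were higher in BEAS-2B cells and 2 in A549 cells, with 10 and 2 of 20 for remodelling enzymes and 5 and 2 of 11 for collagens. Untreated, the counts were 14 and 2 of 18, 12 and 1 of 21, and 5 and 1 of 10. FN1, fibronectin, stood at 6324, 15121 and 18442 normalized counts in A549 cells and at 13351, 199904 and 208711 in BEAS-2B cells. Both treated BEAS-2B values exceeded every A549 value, and the difference widened from 2.11-fold (2.04 to 2.18) to 11.3-fold (11.2 to 11.5). COL1A1, the main chain of type I collagen, stood at 101, 2278 and 2043 in A549 cells and 2675, 30554 and 30840 in BEAS-2B cells. It rose in both lines and narrowed from 26.5-fold (21.4 to 33.3) to 15.1-fold (14.5 to 15.8).

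The small proteoglycan gene BGN, biglycan, was the gene best resolved toward treated BEAS-2B cells. It stood at 108, 5188 and 5416 in BEAS-2B cells and at 1.16, 14.4 and 1.81 in A549 cells, a 2985-fold difference at 5 ng/mL (826 to 24655). LOXL1, which cross-links elastin, stood at 2045, 2476 and 2952 in BEAS-2B cells and between 1.16 and 10.3 in A549 cells, and its difference of 651-fold at 5 ng/mL (278 to 2006) was preceded by one of 1765-fold untreated (316 to 69737). TNC, tenascin C, rose in BEAS-2B cells from 94.8 to 417 and 360 and did not in A549 cells, at 3.48, 4.81 and 0.907. SPARC, a collagen-binding glycoprotein, narrowed from 191-fold (117 to 334) to 50.0-fold (41.7 to 60.4).

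Matrix genes also closed or crossed. THBS1, thrombospondin, narrowed from 12.7-fold (9.65 to 17.1) to 2.28-fold (2.11 to 2.46), and COL4A2, a basement membrane collagen, from 1.93-fold (1.74 to 2.15) to 1.07-fold (1.03 to 1.11). MMP2, a gelatinase, stood at 10.4, 493 and 769 in A549 cells and 197, 2923 and 2524 in BEAS-2B cells, and narrowed from 18.9-fold (9.75 to 42.1) to 3.28-fold (3.03 to 3.56). TGFBI, a TGF-β-induced matrix protein, rose in both lines, to 31744 and 29164 after 5 ng/mL. VCAN, versican, remained higher in A549 cells, by 59.5-fold (44.0 to 82.4) untreated and 7.76-fold (7.18 to 8.39) treated. The 8 genes that the study singled out as its core fibrosis genes all rose at least 2-fold in both lines. They were chosen on these samples, from genes changed at least 2-fold in both lines, so this rise follows from the choice. At 5 ng/mL, 5 of the 8 were higher in BEAS-2B cells and 0 in A549 cells.

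**Figure D4:**
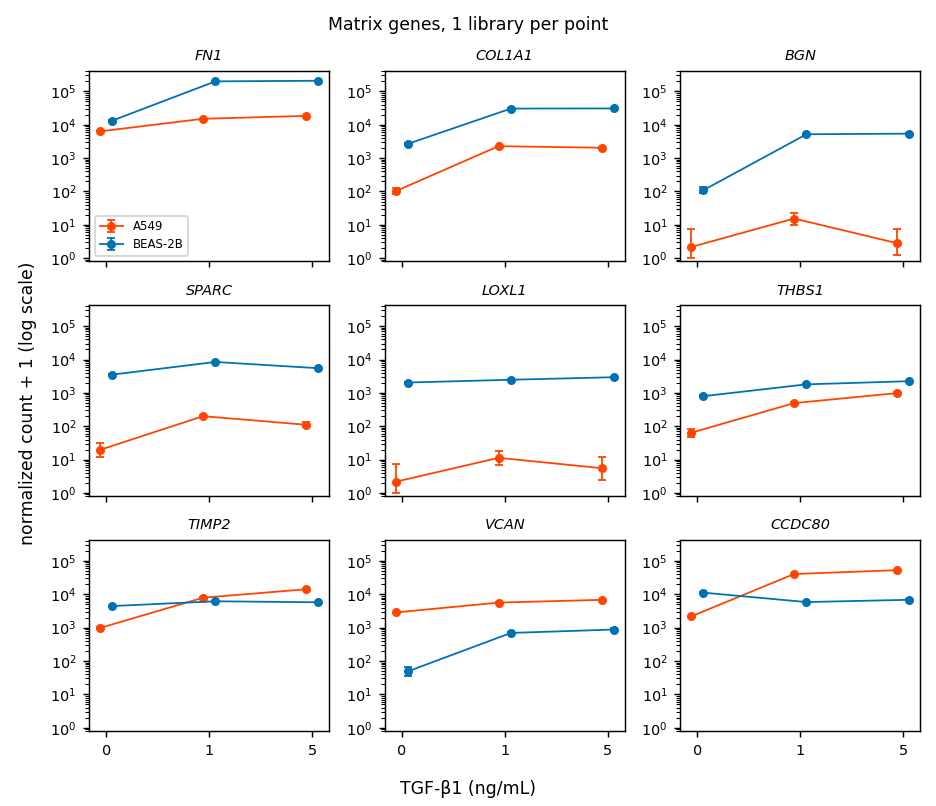
Normalized count plus 1 (log scale) of 9 matrix genes by TGF-β1 dose (0, 1 and 5 ng/mL) in the 2 lines, A549 and BEAS-2B, 1 library per point, with bars for exact 95% counting intervals. BEAS-2B lies above A549 for FN1, COL1A1, BGN, SPARC, LOXL1 and THBS1 at every dose, VCAN lies the other way, and the lines cross for TIMP2 and CCDC80.

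Several of the other genes best resolved toward treated BEAS-2B cells are given singly, and no direction is drawn for their families. CDKN2A and CDKN2B, neighbouring inhibitor genes whose deletion is known in A549 cells, were at 0 in treated A549 cells and at 1030 and 394 in treated BEAS-2B cells, at least 379-fold and 145-fold higher. Copy number was not measured here. KRT17, a basal and stress keratin with close paralogs, rose in BEAS-2B cells from 276 to 3115 and 3786 and stood between 1.37 and 7.26 in A549 cells. PDPN, podoplanin, stood at 141, 432 and 390 in BEAS-2B cells and at 0 in all A549 libraries, at least 143-fold higher at 5 ng/mL. The metallothionein gene MT1E and the interferon-induced gene IFITM3, both with close paralogs, were 407-fold (139 to 1979) and 259-fold (136 to 567) higher.

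Of the MHC class I presentation genes at the level, 9 of 15 were at least 2-fold higher in BEAS-2B cells untreated, 5 of 12 at 1 ng/mL and 6 of 11 at 5 ng/mL, and 0 were higher in A549 cells at any of these doses. HLA-B stood at 378, 258 and 162 in A549 cells and at 4766, 2696 and 2198 in BEAS-2B cells, falling in both, with differences of 12.6-fold (11.3 to 14.2) untreated and 13.5-fold (11.6 to 15.9) treated. B2M, the shared light chain, differed 3.31-fold (3.14 to 3.49) and 3.33-fold (3.14 to 3.53). HLA-B has several entries in the tables, and the entry with most counts is given. PSMB8, a subunit of the immunoproteasome, widened from 2.17-fold (1.76 to 2.68) to 11.3-fold (4.85 to 32.4) as it fell to 5.44 in A549 cells.

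Fewer genes of DNA replication and mitosis differed between the treated lines than between the untreated ones. Before treatment 22 of 33 at the level were at least 2-fold higher in BEAS-2B cells and 0 in A549 cells, and at 5 ng/mL 4 of 30 and 1. Of the 29 at the level in both states, 26 (89.7%) were closer to equal at 5 ng/mL, beside 59.2% of all genes at the level in both. Since 22 of 33 members started at least 2-fold to 1 side, these counts describe the list and are not evidence of narrowing. MCM5, a subunit of the replicative helicase, stood at 152, 330 and 530 in A549 cells and 578, 620 and 651 in BEAS-2B cells, and narrowed from 3.81-fold (3.14 to 4.65) to 1.23-fold (1.09 to 1.39). MCM2 of the same helicase did not narrow, at 3.15-fold (2.76 to 3.61) and 4.24-fold (3.49 to 5.17). TOP2A, a topoisomerase of dividing cells, passed from 1.64-fold higher in BEAS-2B cells (1.59 to 1.70) to 1.26-fold higher in A549 cells (1.23 to 1.29). The CDK inhibitor gene CDKN1A rose in both lines, to 2064 and 1750.

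The TGF-β pathway itself also differed between the treated lines. The receptor gene TGFBR1 rose from 177 to 705 and 1282 in A549 cells and stood at 248, 384 and 353 in BEAS-2B cells, so that a 3.63-fold difference (3.20 to 4.15) appeared. TGFBR2, the other receptor kinase, fell in both lines, to 112 and 145. The ligand gene TGFB1 rose in both and appeared at 2.19-fold higher in A549 cells (1.89 to 2.54). INHBA, an activin subunit, rose from 9.27 to 572 in A549 cells while BEAS-2B cells went from 50.2 to 1328, and LTBP2, a latent TGF-β binding protein, appeared at 4.59-fold higher in BEAS-2B cells (4.03 to 5.25).

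SMAD feedback genes were closer. SMAD7, the inhibitory SMAD, stood at 120 and 149 after 5 ng/mL, and its ratio had an interval of 0.960 to 1.60 toward BEAS-2B cells. PMEPA1, another inhibitor, narrowed from 6.56-fold (5.96 to 7.23) to 1.51-fold (1.47 to 1.54) as it rose in both lines. The ID genes, inhibitors of bHLH factors, remained apart. ID2 stood at 1132, 1623 and 1021 in A549 cells and at 231, 68.6 and 65.5 in BEAS-2B cells, and its difference widened from 4.90-fold (4.22 to 5.72) to 15.6-fold (11.8 to 21.0). ID1 and ID3 were 7.34-fold (5.92 to 9.20) and 7.15-fold (5.80 to 8.91) higher in treated A549 cells. The repressor gene SKI was 4.33-fold higher in treated BEAS-2B cells (3.92 to 4.78).

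Among integrins and growth factor receptors, some differences appeared in the treated pair. ITGB4, the hemidesmosome integrin subunit, rose from 368 to 651 and 862 in A549 cells and fell from 494 to 163 and 115 in BEAS-2B cells, 7.52-fold higher in treated A549 cells (6.06 to 9.43). EGFR, the EGF receptor, rose from 509 to 1354 and 1744 in A549 cells and stood at 719, 567 and 534 in BEAS-2B cells, 3.27-fold higher in treated A549 cells (2.94 to 3.64). Its ligand gene AREG closed, from 367 against 64.7 to 10.9 against 12.6. ITGA11, a collagen-binding integrin subunit, rose in both lines from under 5 normalized counts, A549 cells reaching 324 and BEAS-2B cells 1704, 5.26-fold apart (4.68 to 5.93). IL11, a profibrotic cytokine, rose in both to 5494 and 3221.

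Among the largest differences that appeared toward A549 cells were genes at or near 0 in both untreated lines. LCE3D and LCE3E, near-identical genes of the skin's cornified envelope, stood at 0, 199 and 573 and at 0, 109 and 420 in A549 cells, with at most 2 counts in any BEAS-2B library. VSTM4, an immunoglobulin-family membrane protein, rose from 3.48 to 195 and 656 in A549 cells and stood at 3.35, 20.3 and 10.1 in BEAS-2B cells, 65.1-fold higher at 5 ng/mL (32.9 to 151). CLEC11A, a secreted growth factor of the lectin family, rose from 30.1 to 131 and 132 in A549 cells while it fell from 39.0 to 2.25 and 1.26 in BEAS-2B cells. ELOVL2, an elongase of polyunsaturated fatty acids, moved apart in the same way, to 18.8-fold (9.38 to 44.2).

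Toward BEAS-2B cells, SSC5D, a secreted scavenger receptor, rose from 6.69 to 181 and 175 and stood between 6.95 and 12.7 in A549 cells, 13.8-fold apart at 5 ng/mL (7.94 to 25.9). BIN1, a membrane-curving protein, fell from 159 to 35.0 and 20.9 in A549 cells and stood at 259, 249 and 329 in BEAS-2B cells, 15.8-fold apart (10.3 to 25.3). ANKRD1, a muscle ankyrin repeat protein, fell in A549 cells from 85.7 to 25.4 and rose in BEAS-2B cells from 52.4 to 146.

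Differences that were lost closed by a rise in A549 cells for several genes high in BEAS-2B cells. KANK4, a cytoskeletal adaptor, rose from 3.48 to 130 and 476 in A549 cells and from 85.9 to 498 and 525 in BEAS-2B cells, and ended 1.10-fold apart (0.967 to 1.26). PLEK2, a pleckstrin family protein, ended 1.09-fold apart (0.955 to 1.23) from 13.3-fold (6.77 to 29.7). SDC4, a heparan sulphate proteoglycan, closed from 13.8-fold (12.1 to 15.9) to 1.46-fold (1.32 to 1.61), rising in A549 cells and falling in BEAS-2B cells. MTAP, which salvages methionine, stood at 30.1, 85.2 and 155 in A549 cells and 239, 180 and 146 in BEAS-2B cells. In the other direction, SIK1, a salt-inducible kinase, fell from 460 to 57.0 and 20.9 in A549 cells and met BEAS-2B cells at 21.4. AQP3, a water and glycerol channel, went from 161 to 1.37 and 0 in A549 cells, with at most 1 count in BEAS-2B cells.

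Of the 41 reversed genes, 17 met the level in both states, 8 turning toward A549 cells and 9 toward BEAS-2B cells. For all 17 the counting intervals excluded equality in both states. The level and fold limits fix that outcome, which also held for all 1031 kept differences at the level in both states, so it adds no support. CCDC80, a secreted matrix protein, had the highest counts. It rose from 2163 to 40640 and 52958 normalized counts in A549 cells and stood at 11214, 5857 and 6851 in BEAS-2B cells, from 5.18-fold higher in BEAS-2B cells (4.93 to 5.45) to 7.73-fold higher in A549 cells (7.52 to 7.95). TIMP2, an inhibitor of metalloproteinases, turned from 4.54-fold higher in BEAS-2B cells (4.22 to 4.90) to 2.46-fold higher in A549 cells (2.38 to 2.54). CDH4, R-cadherin, rose from 102 to 728 and 965 in A549 cells and fell from 370 to 86.6 and 93.2 in BEAS-2B cells. In these 3 genes the libraries at 1 ng/mL already had A549 cells higher.

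The opposite turn was made by GDF15, a stress-induced cytokine, and IGFBP3, a binding protein of insulin-like growth factors. GDF15 fell from 1584 to 340 and 243 in A549 cells and rose from 153 to 548 and 631 in BEAS-2B cells, from 10.4-fold higher in A549 cells (8.69 to 12.4) to 2.60-fold higher in BEAS-2B cells (2.23 to 3.02). IGFBP3 fell from 1901 to 295 and 98.0 in A549 cells and stood at 200, 262 and 301 in BEAS-2B cells, 3.07-fold higher there at 5 ng/mL (2.44 to 3.89). PER2, a clock gene, went from 6.89-fold higher in A549 cells (4.23 to 11.8) to 10.5-fold higher in BEAS-2B cells (4.76 to 27.4), at 66.8 normalized counts and so below the minimum level. Several further reversals rested on near-empty counts. MUC5AC had 1 count in treated BEAS-2B cells and 0 in A549 cells, and IGFL1, COL22A1 and C4orf26 had 1 count in 1 line and 0 in the other before treatment, so that their direction in that state could not be read. The same held for ITGA11, with 4 counts in untreated A549 cells and 0 in untreated BEAS-2B cells.

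**Figure D5:**
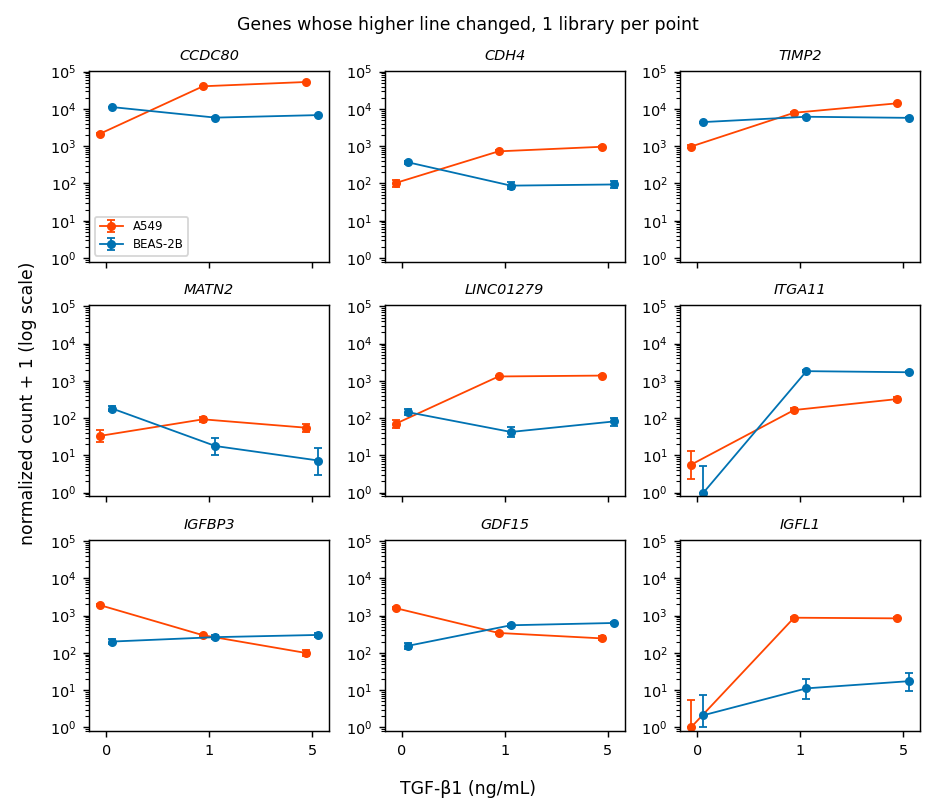
Normalized count plus 1 (log scale) by TGF-β1 dose (0, 1 and 5 ng/mL) in the 2 lines, A549 and BEAS-2B, for 9 genes classed as reversed, 1 library per point, with bars for exact 95% counting intervals. GDF15 ends at 243 (A549) and 631 (BEAS-2B), having started at 1584 and 153. IGFL1 starts from 0 and 1 count and ITGA11 from 4 and 0, so their untreated direction could not be read. MATN2 ends below the minimum level in both lines, at 54.4 and 6.30.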

How the data were processed

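RNA of A549 and BEAS-2B cells, untreated or given 1 or 5 ng/mL of TGF-β1 over 48 h, was sequenced with a QuantSeq 3′ kit. The authors deposited raw read counts per gene and library, made, per the labels, on hg19 with Bowtie2 and bedtools (versions not given in the sources used here). The 6 tables have 25737 entries and 24462 symbols, 286 of which have several entries. Strand handling and the treatment of reads from near-identical genes are not given in the sources used here.

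Groups came from the sample titles, with 1 library per condition and no test. TMM factors over the 6 libraries (edgeR 4.0.16 in R 4.3.3) gave normalized counts at the mean effective library size, and log2 ratios of A549 over BEAS-2B used a pseudocount of 1. A gene was called at 2-fold or more with log2 of its normalized count plus 1 at 7 or above in at least 1 of the libraries compared. Exact Clopper-Pearson intervals at 95% were computed with scipy 1.17.1. They cover counting error only, and, with no molecular identifiers, 2 reads may come from 1 molecule. A library with 0 counts was set to 3 counts for a lower bound. At 5 ng/mL, 3 counts were 0.492 CPM in A549 cells and 0.728 CPM in BEAS-2B cells. Scripts were tested on simulated data.

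Genes were named by rank: the first 15 on each side by the bound of the interval nearest to equality, the first 8 per class that appeared or were lost by change in ratio, up to 16 reversed genes, and members of 24 lists holding 532 genes, of which 531 were found. The members, lists and rules were chosen with earlier results of these data known. Promoter sequence was taken from RefSeq on GRCh38.p14 and counts were not placed on that build. Sex chromosome genes that identify sex were left out. In all, 15 alternative settings were computed, among them DESeq2 1.42.0 size factors.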

Additional observations from a re-analysis of the deposited data

How the results depend on the processing

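No paired analysis was possible because each condition had 1 library and carried no replicate number, and for the same reason no library could be left out. Under 15 alternative settings, 143 of the recomputed numbers of genes stayed within 1.5 times the reported ones and 67 did not, and of the values of single genes and lists 5939 stayed close to the reported value, 91 moved and 0 reversed. DESeq2 size factors, total counts, upper quartile factors, pairwise TMM, thinning, the pre-filter, the pseudocounts, summed entries and the GC correction moved none of the numbers of genes that differed, were kept, lost, appeared or reversed by over 1.5 times. Thinning moved the number of genes found in BEAS-2B cells only from 14 to 22 and that in A549 cells only from 76 to 77. Total counts turned the side with more genes for kept differences (793 and 810), those that appeared (322 and 330) and all those at 5 ng/mL (849 and 955). Scaling by total counts placed 47.1% of the differences at 5 ng/mL on the A549 side, beside 55.0%, and a 4-fold limit 64.8%. The cause of these shifts was not tested.

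The counts depended on the level and fold limits. Values are given for A549 and then BEAS-2B, at 5 ng/mL, untreated and 1 ng/mL, then for kept, lost, appeared and reversed differences. Without a minimum level they were 4005 and 3166, 5355 and 3509, 4592 and 2818, then 2523 and 1625, 2449 and 1716, 1314 and 1158, 168 and 383. With the level required in both libraries they were 407 and 340, 479 and 656, 388 and 410, then 157 and 170, 201 and 420, 195 and 79, 4 and 4. With log2(CPM + 1) of at least 7 they were 309 and 220, 360 and 415, 289 and 259, then 255 and 236, 148 and 267, 135 and 45, 7 and 6. With a 1.5-fold limit they were 1726 and 1615, 2068 and 2264, 1793 and 1762, with kept differences at 1404 and 1337, those that appeared toward BEAS-2B cells at 467 and reversed ones at 87 and 73. With a 4-fold limit they were 426 and 231, 566 and 411, 442 and 248, then 400 and 218, 235 and 255, 152 and 69, 4 and 4. These follow from the construction of the settings, which admit more or fewer genes. Under all 15 settings fewer genes differed between the lines at 5 ng/mL than untreated.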
